A study of Ovis aries with 2 samples.

Results

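The 8 genes UGT8, ST18, ERMN, CLDN11, ANLN, PLEKHH1, RNF220 and PLA2R1, chosen by symbol as genes of myelin and of maturing oligodendrocytes, were followed through 2 single-nucleus RNA libraries of sheep cerebral cortex. The choice was made with earlier results of these data known. Each symbol named 1 of the 13765 features listed in both libraries, so all 8 were measured. The nuclei came from wildtype adult female Rambouillet sheep, aged 18 to 36 months by the labels, and the series description speaks of a single animal. The pre-processed library was made from nuclei taken directly from dissected cortex, and the post-processed library from tissue that was first cleared of debris and red blood cells. No treatment was given in life, and both libraries carry the same batch label. Its title and the series description say so, but its treatment label reads "no debris/RBC removal", so which library is which was taken from the titles. With 1 library per condition, no difference has a replicate check, no test was run, and all intervals (95%) cover counting error only.

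Oligodendrocytes wrap axons in myelin, a stack of membrane that is rich in galactolipids and is sealed by tight junctions between its layers. Precursor cells divide, leave the cycle and then switch on genes for lipid synthesis, for the cytoskeleton that shapes the membrane and for the proteins that hold its layers together. Of the 8 genes, UGT8 makes galactosylceramide, a main lipid of myelin, and ST18 is a zinc finger transcription factor of the MYT1 family. ERMN (ermin) is an actin-binding protein of myelinating oligodendrocytes, CLDN11 is the claudin of myelin tight junctions, and ANLN (anillin) is a scaffold for actin and septins, known from cell division and from the septin filaments of mature myelin. PLEKHH1 carries pleckstrin homology, MyTH4 and FERM domains, RNF220 is an E3 ubiquitin ligase, and PLA2R1 is the M-type phospholipase A2 receptor.

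The pre-processed library held 9580441 unique molecular identifiers (UMIs, each a counted RNA molecule) of the listed genes in 2125 barcodes, at a median of 2524 UMIs. The post-processed library held 794203 UMIs in 905 barcodes, of which 494 had at least 100 detected genes and were kept, at a median of 667.5 UMIs. The study states about 5000 nuclei per condition, and 0 barcodes were shared between the libraries. Cell classes were named from markers that exclude the 8 genes, and the 8 genes were also left out of the clustering, so that their level in a class was not set by it. Oligodendrocyte-like barcodes numbered 182 before and 58 after processing, precursor-like 108 and 0, astrocyte-like 355 and 2, neuron-like 962 and 0, microglia-like 85 and 180, and endothelial-like 6 and 26. A shallow cluster, nearest to microglia by markers, held 225 post-processed barcodes at a median of 229 UMIs and is kept apart. It had 8 of 9 microglial markers raised, but its 10 leading genes included none of them. These were GNLY, THBS1, SAMSN1, CD69, S100A11, FOS, ARHGAP15, HSPA6, AREG and SUSD3. Only 2 of 7 lymphocyte markers were listed, under the 3 needed, so no cluster could be named for lymphocytes. Besides these, 2 clusters of 361 and 66 pre-processed barcodes stayed unnamed, of which the larger, led by S100B and NEFL, also took 3 post-processed barcodes. MBP, MOG, MAG and MOBP were not analysed here, and 8 oligodendrocyte markers (TF, GPR37, SLC24A2, HAPLN2, SLC44A1, SEMA4D, LPAR1 and ERBB3) defined the class.

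All 8 genes had their highest level in oligodendrocyte-like nuclei, in both libraries. Levels are counts per 1000000 UMIs (CPM) of the listed genes, and each gene is compared only with itself. In pre-processed nuclei the 8 genes together made 20681 CPM in oligodendrocyte-like nuclei (20172 to 21199), 3669 CPM in precursor-like nuclei, 2085 CPM in astrocyte-like nuclei and 470 CPM in neuron-like nuclei. The unnamed clusters had 1591 CPM and 279 CPM. Microglia-like barcodes came next after oligodendrocyte-like ones, at 6921 CPM (6478 to 7385). In the post-processed library the sum was 21318 CPM in oligodendrocyte-like nuclei (20559 to 22098), 5900 CPM in microglia-like barcodes, 4918 CPM in the shallow cluster and 2354 CPM in endothelial-like nuclei.

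At least 2-fold above every other class of the same library stood 7 of the 8 genes before processing and 8 of 8 after it. The same held for 3.11% of 8060 listed genes in the pre-processed library and for 6.82% of 5336 genes in the post-processed library. The comparison took in 7 classes before processing and 4 after it, where no precursor-like, astrocyte-like or neuron-like class was large enough. The post-processed condition was thus easier to meet. The 8 were chosen as oligodendrocyte genes with earlier results of these data known, so a count above the share of all genes is no independent result. ST18 was the exception before processing. It had 1499 CPM in oligodendrocyte-like nuclei (1364 to 1643) and 784 CPM in microglia-like barcodes (640 to 951), 1.91-fold apart. ERMN was the closest after processing, with 730 CPM in oligodendrocyte-like nuclei against 364 CPM in microglia-like barcodes, 2.01-fold apart.

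**Figure D1:**
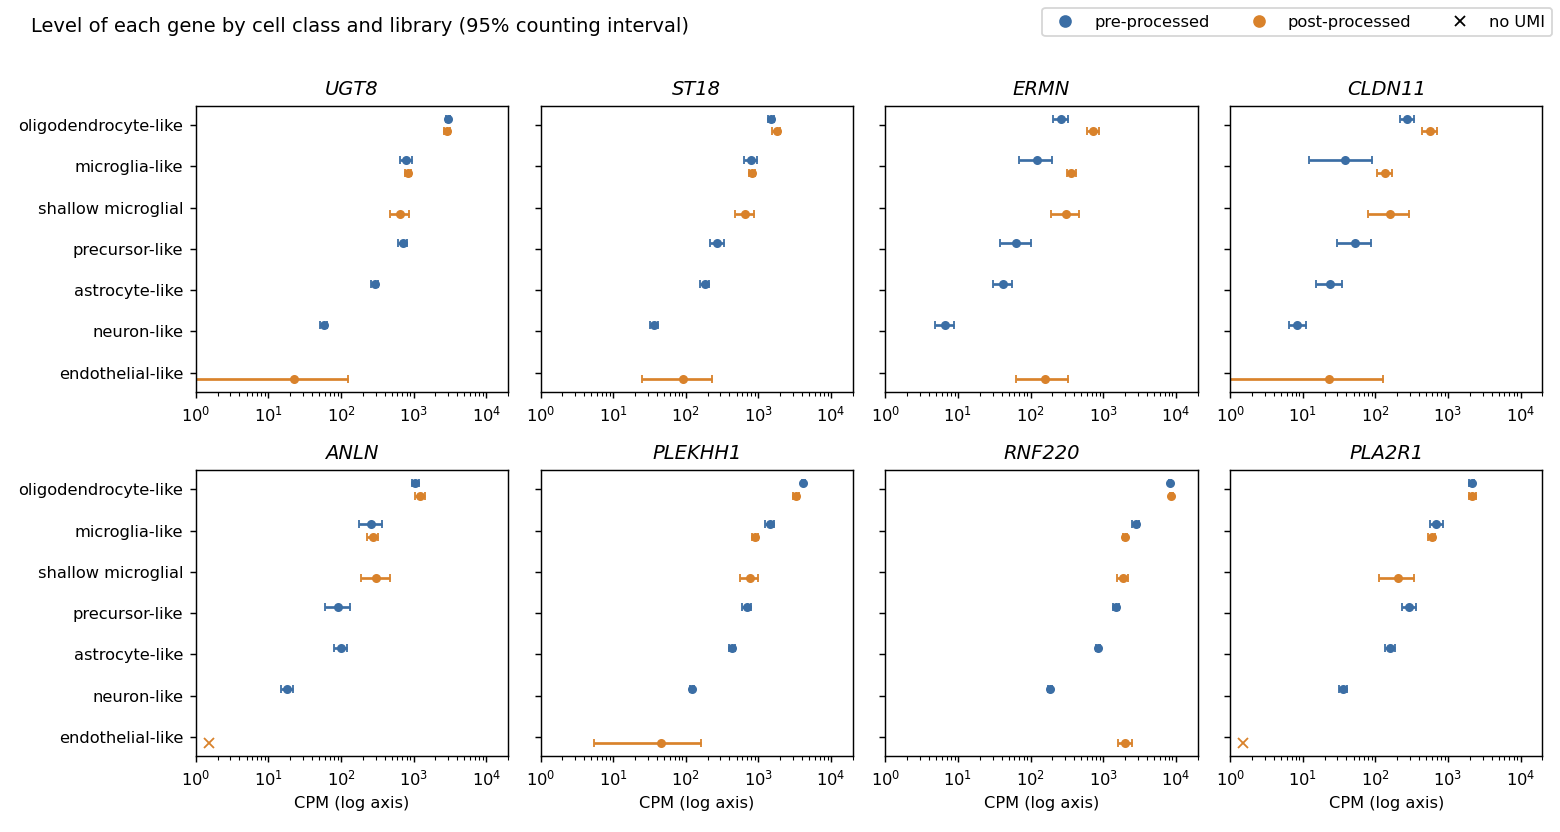
Level of each gene (CPM, log axis) by cell class, with 95% counting intervals, in pre-processed (blue) and post-processed (orange) barcodes; a cross marks a class with no UMI, and classes under 10 barcodes in a library are not drawn. Each panel has its highest point in the oligodendrocyte-like row, and in endothelial-like nuclei RNF220 keeps 2015 CPM while ANLN and PLA2R1 have no UMI.

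In the pre-processed library UGT8 had 2978 CPM in oligodendrocyte-like nuclei, 705 CPM in precursor-like nuclei (611 to 810) and 792 CPM in microglia-like barcodes (647 to 959), and the last pair of intervals overlap. A UGT8 molecule was seen in 178 of 182 oligodendrocyte-like nuclei and in 64 of 108 precursor-like nuclei. The gap between oligodendrocyte-like and precursor-like nuclei was 4.22-fold for UGT8 and ran from 4.11-fold for ERMN to 11.5-fold for ANLN. Of the precursor-like nuclei, 70 of 108 had under 3 of the 8 genes. In these, ST18 had 12.6 CPM instead of 271, RNF220 126 instead of 1502 and ANLN 6.32 instead of 91.6. UGT8 had 429 CPM there instead of 705. This set is chosen by the members themselves, so lower levels in it follow in part from the choice. Depth differed too, with medians of 1905.5 UMIs in these 70 and 4307 UMIs in the 11 with 6 or more genes. ANLN had 1050 CPM in oligodendrocyte-like nuclei (938 to 1172) and 91.6 CPM in precursor-like nuclei (59.9 to 134). Its level in precursor-like nuclei did not differ beyond counting error from the 98.6 CPM of astrocyte-like nuclei (80.6 to 119).

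PLEKHH1 had 4167 CPM in oligodendrocyte-like nuclei before processing, 691 CPM in precursor-like nuclei and 121 CPM in neuron-like nuclei. RNF220 had 8320 CPM, 1502 CPM and 186 CPM in the same classes, and PLA2R1 had 2136 CPM, 293 CPM and 35.4 CPM. CLDN11 was sparse in microglia-like barcodes before processing, with 5 UMIs, or 38.1 CPM (12.4 to 88.8), beside 52.9 CPM in precursor-like nuclei (29.6 to 87.2), 23.7 CPM in astrocyte-like nuclei (15.3 to 35.0) and 271 CPM in oligodendrocyte-like nuclei. Its intervals in the first 3 of these classes overlap. ERMN had 79 UMIs in the 182 pre-processed oligodendrocyte-like nuclei, seen in 61 of them, and 45 UMIs in 962 neuron-like nuclei.

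Over all barcodes kept, every one of the 8 genes had a higher level in the post-processed library. UGT8 had 214 CPM before and 1123 CPM after processing (log2 ratio 2.39, 2.27 to 2.50), and ST18 had 119 and 911 CPM (log2 ratio 2.94). ERMN had the highest ratio, from 23.4 to 405 CPM or 4.11 on the log2 scale, and PLEKHH1 the lowest, from 330 to 1257 CPM or 1.93. CLDN11 (22.1 to 205 CPM), ANLN (68.3 to 430 CPM), RNF220 (613 to 3160 CPM) and PLA2R1 (136 to 801 CPM) had log2 ratios of 3.21, 2.66, 2.37 and 2.56.

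At least 2-fold higher were 8 of 8, where 32% of 8344 genes with 10 or more UMIs were, and 0 of 8 were 2-fold lower, where 24.1% of genes were. The median log2 ratio of the 8 genes was 2.61, beside 0.37 for all of these genes. With the scale set so that the all-gene median is 0, the median of the 8 was 2.24. The mix of classes differed between the libraries at the same time. Oligodendrocyte-like nuclei held 3.16% of all UMIs before and 18.2% after processing, while neuron-like nuclei, where the 8 genes are low, held 71.6% before and had no barcode after it. Fewer cells of a class and less RNA per cell cannot be told apart in such sums.

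Within oligodendrocyte-like nuclei the summed level was nearly the same in the 2 libraries, 20681 and 21318 CPM, a log2 ratio of 0.04 (-0.02 to 0.11). The members nevertheless differed among themselves. ERMN had 261 CPM (206 to 325) before and 730 CPM (596 to 887) after processing, which makes a log2 ratio of 1.48 (1.05 to 1.93). CLDN11 had 271 and 559 CPM, with a log2 ratio of 1.05 (0.58 to 1.51). PLEKHH1 was lower after processing, with 4167 against 3337 CPM and a log2 ratio of -0.32 (-0.48 to -0.17).

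ERMN and CLDN11 were thus the 2 of 8 genes at least 2-fold higher in this class, where 7.07% of 4142 genes were, and 0 of 8 were 2-fold lower, where 17.6% were. ST18 had 1499 and 1776 CPM, and the interval of its log2 ratio of 0.25 excluded 0. For UGT8 (2978 and 2857 CPM), ANLN (1050 and 1232 CPM), RNF220 (8320 and 8672 CPM) and PLA2R1 (2136 and 2155 CPM) the interval of the ratio included 0. The ERMN ratio lay between 1.47 and 1.69 over the alternatives that named this class in both libraries, and that of CLDN11 between 1.01 and 1.15. ERMN molecules were seen in 61 of 182 nuclei before and 35 of 58 after processing, at median depths of 1490.5 and 2423 UMIs. With each nucleus thinned to 500 UMIs the shares were 17.0% (11.9 to 23.3%) and 23.2% (13.0 to 36.4%) for ERMN and 15.4% (10.5 to 21.5%) and 28.6% (17.3 to 42.2%) for CLDN11, and within each pair the intervals overlap. In the same nuclei 13 neuronal markers summed to 3381 CPM before and 315 CPM after processing, and their part in these ratios was not tested.

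**Figure D2:**
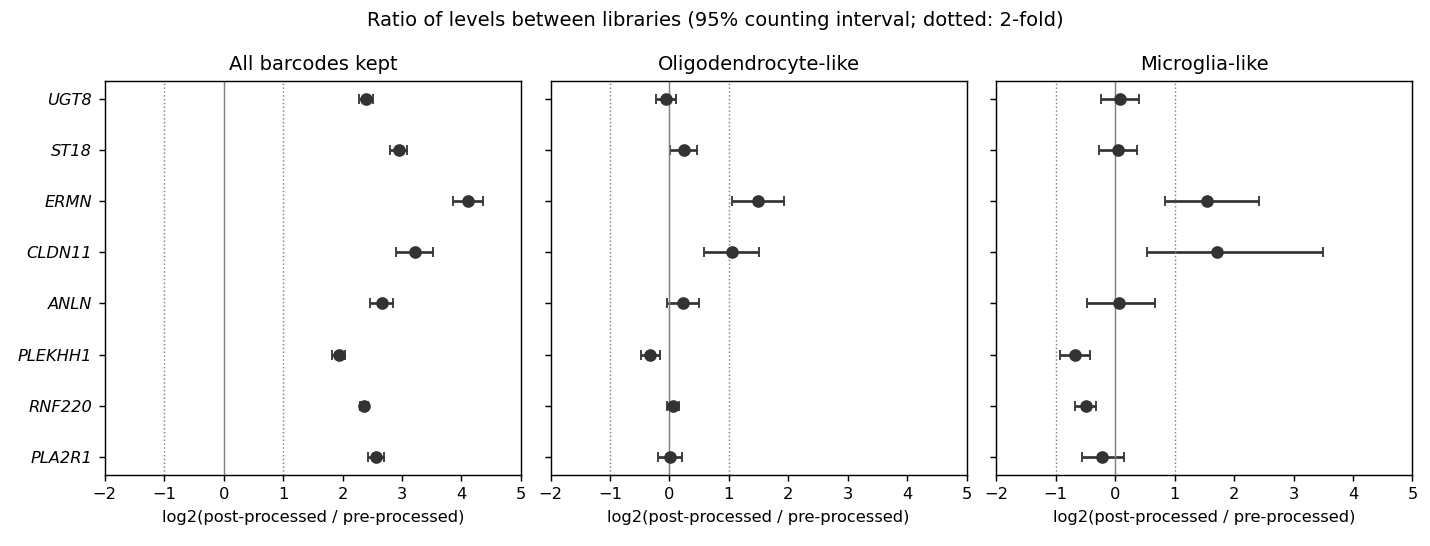
Log2 ratio of post-processed over pre-processed level for each gene, with 95% counting intervals, over all barcodes kept, within oligodendrocyte-like and within microglia-like barcodes; dotted lines mark 2-fold. All 8 genes lie right of 1 over all barcodes, and only ERMN and CLDN11 do within each of the 2 classes.

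Presence in microglia-like barcodes was examined next. Of the 14613 UMIs of the 8 genes in the pre-processed library, 42.9% lay in oligodendrocyte-like nuclei, 22.1% in neuron-like nuclei, 15.0% in astrocyte-like nuclei and 6.22% in microglia-like barcodes. Of the 6345 such UMIs in the post-processed library, 46.9% lay in oligodendrocyte-like and 46.0% in microglia-like barcodes. The latter class held 1.37% of all UMIs before and 64.6% after processing. Its level of the 8 genes, in contrast, was 6921 CPM in the pre-processed and 5900 CPM in the post-processed library (log2 ratio -0.23, -0.34 to -0.12). That direction turned at resolution 1.0, where the class had 1475 and 2260 CPM, and with no minimum of detected genes, where it had 1475 and 2280 CPM, while with each library clustered apart it had 7393 and 781 CPM.

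The 8 genes again went different ways within microglia-like barcodes. ERMN went from 122 to 364 CPM (log2 ratio 1.54, 0.84 to 2.42) and CLDN11 from 38.1 to 135 CPM (1.70, 0.54 to 3.50), so 2 of 8 were at least 2-fold higher, where 11.9% of 5077 genes were. PLEKHH1 went from 1431 to 894 CPM (-0.68) and RNF220 from 2802 to 1990 CPM (-0.50), and 0 of 8 were 2-fold lower, where 15.9% of genes were. For UGT8 (792 and 837 CPM), ST18 (784 and 809 CPM), ANLN (259 and 273 CPM) and PLA2R1 (693 and 599 CPM) the intervals included 0. These ratios depend on which barcodes count as microglia-like. With each library clustered apart the CLDN11 ratio was -2.44, and at resolution 1.0 those of PLEKHH1 and RNF220 were 0.70 and 0.16.

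After thinning to 200 UMIs, 43.5% of microglia-like barcodes held a molecule of any of the 8 genes before processing (32.8 to 54.7%) and 30% did after it (23.4 to 37.3%). Unthinned, the shares were 77.6% and 59.4%, at median depths of 1291 and 1535 UMIs. The thinned share was 8.84% in neuron-like nuclei (7.12 to 10.8%), taken as the background at a median depth of 5405.5 UMIs, 15.5% in astrocyte-like and 33.3% in precursor-like nuclei. In oligodendrocyte-like nuclei it was 97.3% before and 100% after processing. At least 2 different genes of the 8 were seen in 24.7% (16.0 to 35.3%) and 12.2% (7.82 to 17.9%) of microglia-like barcodes, beside 0.728% of neuron-like nuclei and 85.2% and 77.6% of oligodendrocyte-like ones. In the shallow cluster 50.0% had at least 1 and 22.1% at least 2 of the genes, over the 136 barcodes deep enough to thin, with 89 left out. The unnamed pre-processed cluster led by S100B and NEFL, whose median depth of 1239 UMIs is nearer to that of microglia-like barcodes, had any of the 8 genes in 25.5% (21.1 to 30.3%) and at least 2 in 2.77% (1.34 to 5.04%). Its share with any gene overlaps that of post-processed microglia-like barcodes. No post-processed barcode was neuron-like, so that background comes from the pre-processed library alone. Without the barcodes with 2 or more UMIs of the other oligodendrocyte markers, the share with any of the 8 was 12.5% (2.66 to 32.4%) before and 7.29% (2.98 to 14.5%) after processing.

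The 8 genes were unevenly spread over microglia-like barcodes. Unthinned, 73 of the 180 post-processed barcodes had none of the 8, 45 had 1, 17 had 2, 11 had 3 to 5, and 34 had 6 or more different genes. Those 34 barcodes held 92.3% of the class's 2918 UMIs of the 8 genes. In the pre-processed library 17 of 85 had 6 or more, with 74.8% of 909 UMIs, 18 had 3 to 5, 50 had under 3 and 19 had none. In oligodendrocyte-like nuclei 126 of 182 and 47 of 58 had 6 or more, and no nucleus had none. The limits of 3 and 6 genes were set after the counts had been seen.

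**Figure D3:**
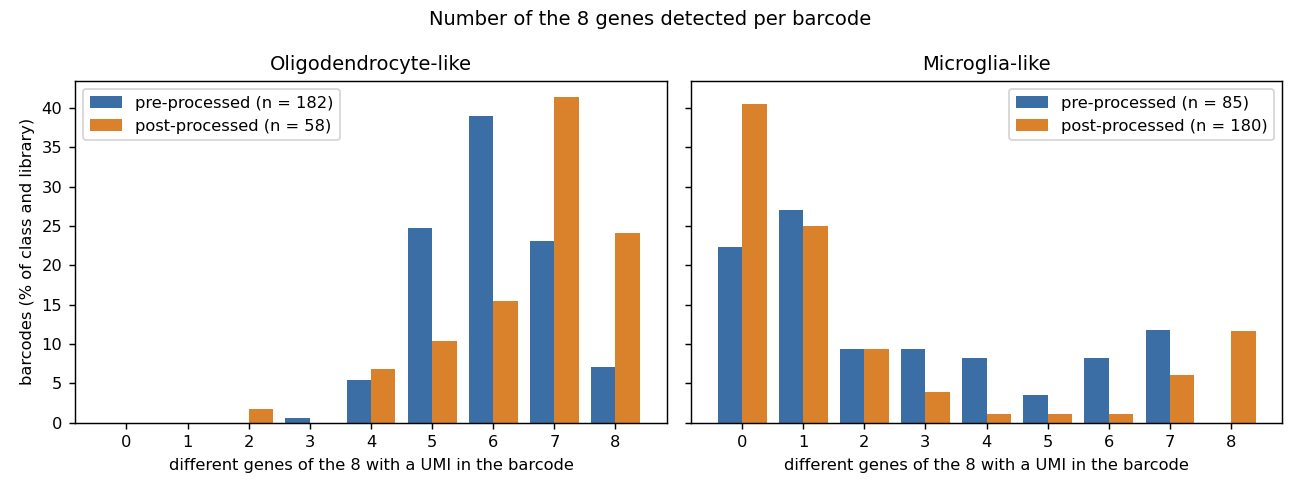
Share of barcodes (%) by the number of different genes of the 8 with a UMI, in oligodendrocyte-like (left) and microglia-like (right) barcodes of each library, unthinned. Post-processed microglia-like barcodes fall into a large set with 0 to 2 of the genes (135 of 180) and a smaller one with 6 to 8 (34 of 180).

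Microglia-like barcodes with 6 or more of the genes also carried the other oligodendrocyte markers. In the post-processed library these 34 barcodes had 10495 CPM of the 8 genes, 12150 CPM of the 8 other oligodendrocyte markers, all of them detected, and 7744 CPM of the 9 microglial markers. The 135 barcodes with under 3 of the genes had 709 CPM, 719 CPM and 13836 CPM of the same 3 sets. Pre-processed values were 15109, 16442 and 6288 CPM for the 17 barcodes with 6 or more, and 914, 1329 and 14756 CPM for the 50 with under 3. Of the oligodendrocyte markers HAPLN2 (before) and ERBB3 (after) were at 0 in the barcodes with under 3 genes, and of the microglial markers ADAM28 was at 0 in both pre-processed sets and C1QB in the pre-processed set with under 3. In oligodendrocyte-like nuclei the microglial markers summed to 82.5 CPM before and 265 CPM after processing. Depth differed too, with medians of 6191.5 and 1308 UMIs in the post-processed barcodes with 6 or more and with under 3 genes, and 2637 and 1129 UMIs in the pre-processed ones. A doublet caller marked 4 of 2125 and 0 of 494 barcodes and none of these 17 and 34, so it made practically no calls, and the part of depth or of RNA from more than 1 nucleus in these barcodes was not tested.

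**Figure D4:**
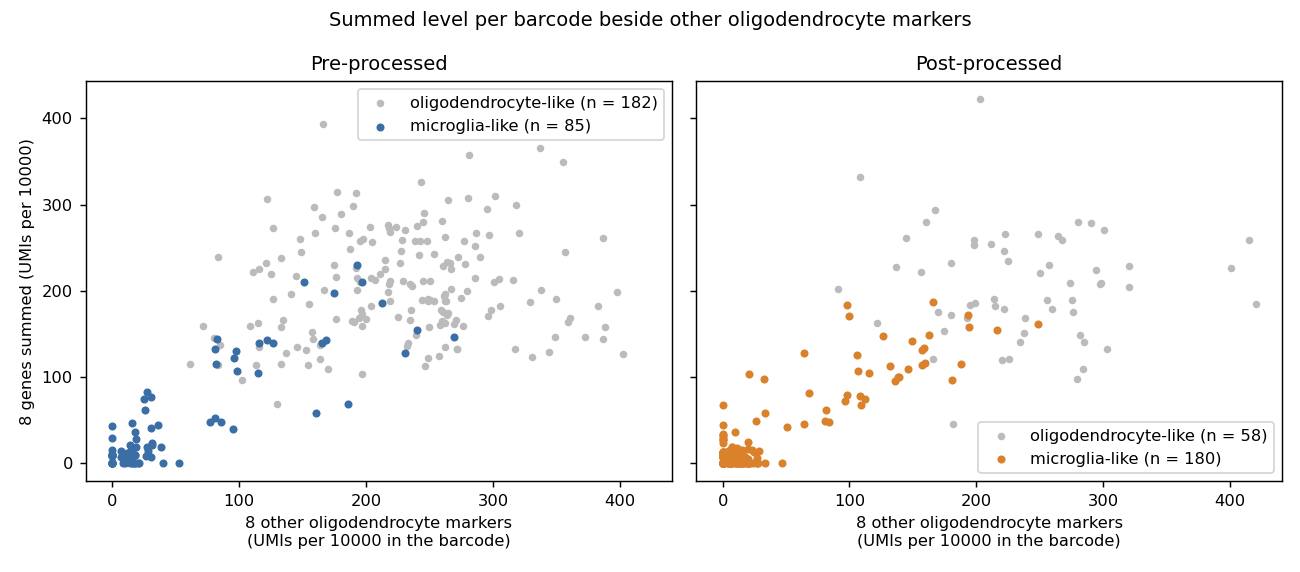
Summed level of the 8 genes (UMIs per 10000, vertical) against the summed level of 8 other oligodendrocyte markers (horizontal), each point 1 barcode, for microglia-like barcodes (coloured) and oligodendrocyte-like nuclei (grey) of the pre-processed (left) and post-processed (right) library. Most microglia-like points lie near the origin and a smaller set runs up into the range of oligodendrocyte-like nuclei.

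Most UMIs of the 8 genes in the microglia-like class lay in this set, 74.8% before and 92.3% after processing. A wider cut left out every barcode with 2 or more UMIs of the other oligodendrocyte markers. It kept 24 of 85 barcodes before and 96 of 180 after processing, where the 8 genes summed to 772 CPM (478 to 1180) and 624 CPM (496 to 775). This cut also took out barcodes with fewer than 6 of the genes, so it does not test the set alone. Microglia-like barcodes with under 3 genes carried such markers too. SEMA4D had 382 CPM there before and 208 CPM after processing, and SLC44A1 316 and 268 CPM. The part of the choice of barcodes in the lower sums was not tested. At resolution 1.0, 27 of the 85 and 27 of the 180 barcodes moved to an unnamed cluster nearest to microglia by markers. Its leading genes were CP, LPAR1, ARAP2, COL6A3, HAPLN2, ERBB3, PRR18, TF, CREB5 and DMP1. DMP1 was also the first leading gene of the microglia-like cluster used elsewhere. This unnamed cluster took 17 of the 17 and 25 of the 34 barcodes with 6 or more genes. Of its 62 pre-processed barcodes, 27 came from the microglia-like class and the others from outside it. What remained microglia-like then had 1475 and 2260 CPM. Other pre-processed classes held barcodes with 6 or more genes as well, at other depths and levels. The 8 genes' UMIs in astrocyte-like nuclei lay to 64.8% in 34 of 355 barcodes, those in neuron-like nuclei to 42.8% in 33 of 962 and those in precursor-like nuclei to 49.0% in 11 of 108. Their median depths were 4431.5, 13073 and 4307 UMIs, beside 2444, 4907 and 1905.5 UMIs with under 3 genes. They had 9312, 3025 and 10511 CPM of the 8 genes, beside 15109 CPM in the 17 pre-processed microglia-like barcodes. The part of depth in these sets was not tested.

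Apart from those barcodes, the share of single members among the 8 genes' UMIs differed between classes. These are shares of raw UMIs, not corrected for gene length, so each gene is set beside its own share in oligodendrocyte-like nuclei. The makeup of the 8 genes' UMIs in microglia-like barcodes with 6 or more genes was set beside that of oligodendrocyte-like nuclei. RNF220 had 40.6% and 35.2% of the UMIs before and after processing beside 40.2% and 40.7%, ST18 9.41% and 10.8% beside 7.25% and 8.33%, and ERMN 1.62% and 5.38% beside 1.26% and 3.43%. After processing the intervals of these 3 genes did not overlap between the 2 sets. Over all microglia-like barcodes ST18 made 11.3% of the UMIs before and 13.7% after processing. In the post-processed ones with under 3 genes, ST18 made 91 of 143 UMIs, or 63.6% (55.2 to 71.5%), seen in 41 of 135 barcodes at 451 CPM. ERMN made 25 of the 143, or 17.5%, in 15 barcodes. RNF220 made 11, or 7.69%, and PLEKHH1 only 1.

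ST18 also took a larger share of the pre-processed microglia-like barcodes with under 3 genes than of oligodendrocyte-like nuclei, with 22 of 55 UMIs, or 40% (27.0 to 54.1%), in 12 of 50 barcodes at 366 CPM. The split by member number uses the members themselves, so it was repeated on barcodes with no UMI of the other oligodendrocyte markers, a choice added after seeing the data. In 60 such post-processed barcodes ST18 made 31 of 50 UMIs, or 62% (47.2 to 75.3%), in 15 barcodes, ERMN made 12 UMIs in 8 barcodes, RNF220 made 1 and PLEKHH1 none. Only 17 such barcodes with 15 UMIs of the 8 genes existed before processing, 4 of them ST18 and 0 ERMN, too few to set beside the other library. In neuron-like nuclei with under 3 genes, by contrast, ST18 made 5.27% of 929 UMIs (8.87 CPM) and in astrocyte-like ones 2.94% of 238 (9.02 CPM). There RNF220 made 48.8% and 39.5%, and PLEKHH1 27.6% and 33.2%. These sets differ in depth, with medians of 1308 and 1129 UMIs in post-processed and pre-processed microglia-like barcodes against 4907 in neuron-like and 2444 in astrocyte-like nuclei, and the difference in ST18 level between them was not tested.

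UGT8 took a larger share of the UMIs in precursor-like nuclei than the 14.4% of pre-processed oligodendrocyte-like nuclei. Over all 108 of these nuclei UGT8 made 19.2% of the UMIs (16.9 to 21.7%). In the 70 with under 3 of the genes, a set chosen by the members themselves and not checked on another split, it made 68 of 107 UMIs, or 63.6% (53.7 to 72.6%), in 35 nuclei at 429 CPM, while ST18 and ERMN made 2 UMIs each and CLDN11 none. RNF220 had a raised share in post-processed endothelial-like nuclei, with 89 of 104 UMIs, or 85.6% (77.3 to 91.7%), in 18 of 26 nuclei at 2015 CPM (1618 to 2479). ANLN and PLA2R1 were seen in 0 of these 26 nuclei, which allows a share of nuclei with a UMI, though not of nuclei expressing the gene, of up to 11.5%, and UGT8 and CLDN11 had 1 UMI each. The shares in the shallow cluster differed from those in microglia-like barcodes. Its barcodes with under 3 genes had RNF220 at 41.1% of 185 UMIs (33.9 to 48.5%) and ST18 at 13.5% (8.94 to 19.3%). These were 196 of its 225 barcodes, at a median of 210 UMIs, beside 1308 UMIs in post-processed microglia-like barcodes with under 3 genes. They had 3297 CPM of the members and 4758 CPM of the other oligodendrocyte markers, beside 709 and 719 CPM. The limit of 3 genes thus kept unlike sets, and the part of depth in the difference was not tested. UMIs of 1 barcode are not independent, so the intervals of all these shares are too narrow.

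**Figure D5:**
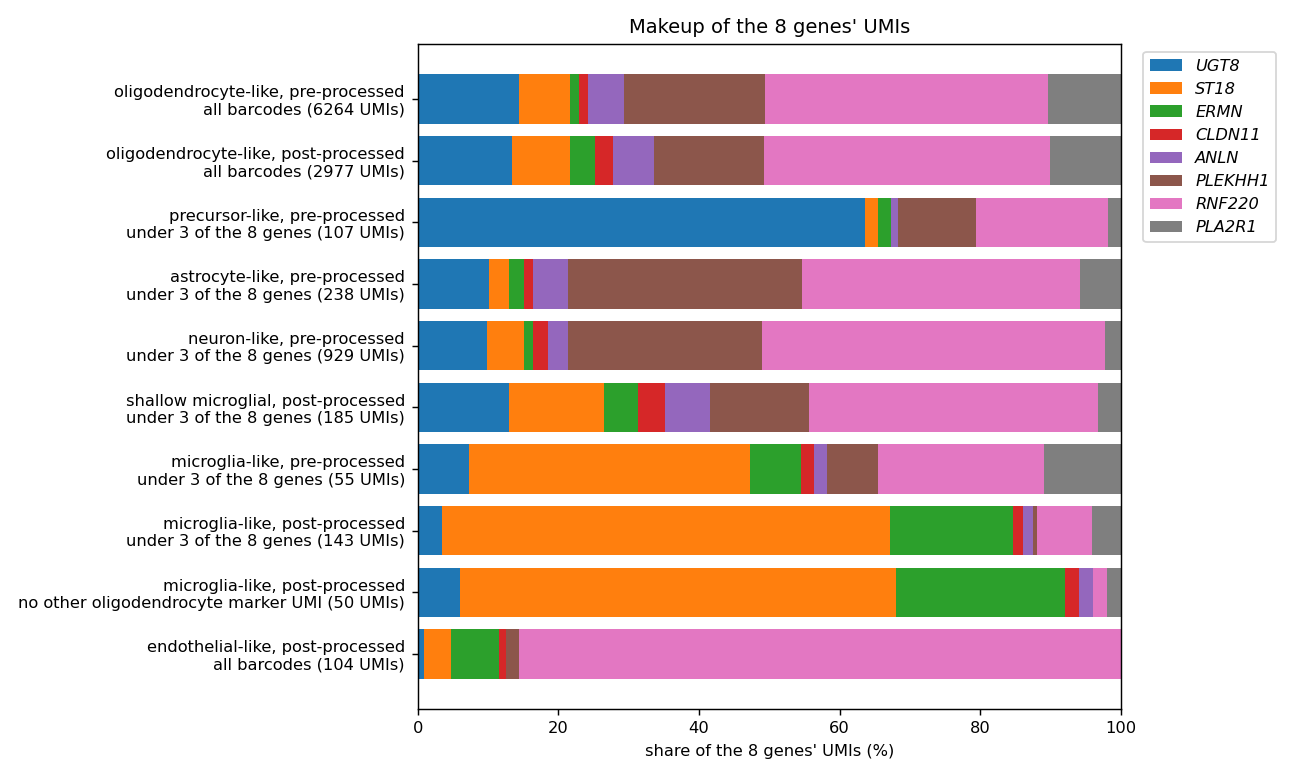
Share of each gene (%) among the UMIs of the 8 genes, in oligodendrocyte-like nuclei, in barcodes of other classes with under 3 of the genes, in post-processed microglia-like barcodes with no UMI of 8 other oligodendrocyte markers, and in endothelial-like nuclei. ST18 takes 63.6% and 62% of the 2 post-processed microglia-like bars, UGT8 63.6% of the precursor-like bar and RNF220 85.6% of the endothelial-like bar.

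Genes of related roles were set beside the 8 within oligodendrocyte-like nuclei, where 7.07% of genes were 2-fold higher and 17.6% 2-fold lower after processing. Among compact myelin proteins 3 of 12 were listed and 0 of 2 tested were 2-fold different. MAL, a membrane proteolipid of myelin, had 462 and 566 CPM, and HAPLN2, a link protein of the node of Ranvier, had 2106 and 1081 CPM, a log2 ratio of -0.96 (-1.23 to -0.70). Of 10 listed genes of myelin lipid synthesis and metabolism, beside UGT8, 0 were 2-fold higher. SLC44A1, a choline transporter, had 1740 and 2420 CPM, a log2 ratio of 0.48 (0.27 to 0.68), while LSS had 16 and 5 UMIs and FDFT1 22 and 10, both enzymes of cholesterol synthesis.

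Among 5 tested regulators of the lineage, 0 were higher and 1 was lower. MYT1L, a neuronal relative of ST18, was the lower one, at 99.0 and 21.5 CPM, and over all barcodes it had 1499 CPM before and 7.84 CPM after, with a log2 ratio of -7.46 beside 2.94 for ST18. QKI, an RNA-binding protein needed for myelination, had 6042 and 8128 CPM within the class, and ZEB2, a transcription factor of differentiation, had 3193 and 4110 CPM. Of the septins and other partners of ANLN, 4 of 6 listed genes were tested, with 0 higher and 1 lower. SEPTIN7 had 1588 and 1740 CPM, SEPTIN8 142 and 229 CPM with an interval that included 0, and SEPTIN11 had 21 and 0 UMIs.

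ANLN had 318 and 172 UMIs in this class, and none of the 5 listed cell-cycle genes reached the 10 UMIs needed for a ratio there. CENPE had 5 UMIs before and 0 after, BUB1B 1 and 0, KIF23 0 and 1, and CCNA2 and BUB1 none. Of claudins and tight junction genes beside CLDN11, 2 of 5 could be tested and 0 were 2-fold different. CLDN12 had 10 and 2 UMIs, CLDN19 3 and 0, TJP3 1 and 0, and CLDN1 none. Among 8 receptors and adhesion genes of oligodendrocytes 0 were 2-fold higher. SLC24A2, a sodium, potassium and calcium exchanger, had 14177 and 16334 CPM, SEMA4D, a semaphorin, had 1020 and 652 CPM, a log2 ratio of -0.64, and TF, transferrin, had 1456 and 1368 CPM. Of committed-precursor genes, FYN had 221 and 265 CPM, TNS3 10 and 1 UMIs, BMP4 3 and 0, and GPR17 and NKAIN1 none. Of 2 tested, 1 was thus 2-fold lower, TNS3, with a log2 ratio of -1.69 and an interval that included 0 (-7.64 to 0.61). The list medians in this class ran from -0.71 for the 2 tested committed-precursor genes to 0.42 for regulators, beside 0.15 for the 8 genes and -0.11 for all genes tested. Over all barcodes, where 32% of genes were 2-fold higher, the counts of 2-fold higher genes were 2 of 2 compact myelin, 5 of 10 lipid, 4 of 5 regulator, 4 of 6 septin and partner, 2 of 4 cell-cycle, 2 of 4 tight junction, 7 of 8 receptor and 1 of 5 committed-precursor genes, with list medians from -0.21 to 2.20. Of the same lists 3 lipid, 1 regulator, 1 septin and partner and 2 committed-precursor genes were 2-fold lower, where 24.1% of genes were.

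The genes whose level was most like the sum of the 8 over 11 pools of class and library were RNF13 (a ubiquitin ligase), RGS3, BAZ2B, CREB5 and OTUD7B, with Pearson correlations of 0.98, 0.98, 0.98, 0.98 and 0.97 on the log2(CPM + 10) scale. RNF13 had 895 and 1024 CPM in oligodendrocyte-like nuclei, 472 and 550 CPM in microglia-like barcodes and 108 CPM in neuron-like nuclei. Of the 8 themselves, ST18 followed the sum of the other 7 most closely, at 0.97, and PLA2R1 least, at 0.82. The pools share libraries, so these values are descriptions.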

How the data were processed

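The values the authors deposited are raw UMI counts for each gene in each barcode, whole numbers without normalization. DRAGEN is named in the submitters' processing notes. Not given in the sources used here are its version, the genome build, the annotation, strand use and how barcodes were called, so coordinates are left out.

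A minimum of 100 detected genes per barcode was applied. The 2 libraries were clustered jointly, without integration, using Seurat 5.3.0 (R 4.3.3) with 2000 variable genes that exclude the 8, values log-normalized to 10000, 30 principal components and Louvain clustering at resolution 0.5. A cluster was named for the class whose markers stood highest above their 25th percentile over the other clusters, with at least 3 raised 1.5-fold. It stayed unnamed where another class led its 10 leading genes, or where a neuronal marker led a cluster of another class. Clusters nearest to microglia and under the library median divided by 2 were called shallow. This rule was revised after the clusters had been seen. Scrublet ran through scanpy 1.11.5 and no doublets were removed.

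CPM carries exact Poisson intervals, shares exact Clopper-Pearson intervals, and log2 ratios, computed with 0.5 counts added, exact conditional binomial intervals. A share of 0 is bounded by 3 counts. Genes with 10 or more UMIs in both libraries together counted as tested, and the ratio step was tested on simulated data. The members, gene lists and markers were chosen with earlier results of these data known. Beside the 8 members, the text names the 3 genes with the most UMIs of each related list, every detected gene of lists with 5 or fewer, and the 5 genes most like the sum. Some genes of these lists are not reported here. The related lists are compact myelin proteins, myelin lipid and metabolism, lineage regulators, septins and partners, cell cycle, tight junction, receptors and adhesion, and committed precursors. UMI totals cover the listed genes only.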

Additional observations from a re-analysis of the deposited data

Results flagged for a closer look

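A signal of the 8 genes was also present in barcodes that no comparison above used, apart from the alternative with no minimum of detected genes. The 411 post-processed barcodes with under 100 detected genes held 219 UMIs of the 8 genes, or 7553 CPM (6586 to 8622), in 144 barcodes. The median depth of these barcodes was 64 UMIs, and the pre-processed library had no barcode below that minimum to set beside them. RNF220 gave 86 of the 219 UMIs, PLEKHH1 32 and UGT8 30. The 8 other oligodendrocyte markers summed to 7312 CPM and the 9 microglial markers to 8657 CPM in the same barcodes. Whether these barcodes hold nuclei or free RNA was not tested.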

How the results depend on the processing

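No paired analysis was possible because each condition had 1 library and no result comes from a test. Over all barcodes kept and within oligodendrocyte-like nuclei, the direction of every ratio whose interval excluded 0 held under the alternatives run. Of 115 recomputed summary values 70 stayed within the interval reported (or, for counts, within 1.5 times), and the only ratio median outside it in those populations was that over all barcodes on the all-gene median scale, 2.24. Values in microglia-like barcodes depended on which barcodes were counted, and the cause was not tested.

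The median microglia-like log2 ratio, 0.05 as reported, was 0.71 with no minimum of genes, 0.69 at resolution 1.0, -4.31 with each library clustered apart (0 of 8 genes 2-fold higher) and -1.71 without barcodes with 2 or more oligodendrocyte marker UMIs (1 of 8). Among the genes whose reported microglia-like interval excluded 0, the ratio reversed in 5 cases: CLDN11 to -2.44 with libraries apart, and PLEKHH1 to 0.74 and 0.70 and RNF220 to 0.19 and 0.16 with no minimum and at resolution 1.0. The other 4 had intervals that included 0 and their ratios took both signs, from -4.82 to 1.30 for UGT8, -0.95 to 0.78 for ST18, -3.86 to 0.68 for ANLN and -4.76 to 0.68 for PLA2R1. The summed level in microglia-like barcodes, pre-processed and post-processed, was 1475 and 2280 CPM with no minimum, 1475 and 2260 CPM at resolution 1.0, 6417 and 5531 CPM at resolution 0.2, 7393 and 781 CPM with libraries apart, 3848 and 2766 CPM with classes from marker UMIs, and 772 and 624 CPM without the oligodendrocyte marker barcodes, so it was higher after processing in the first 2 of these. In oligodendrocyte-like nuclei it was 17511 and 17109 CPM with classes from marker UMIs, and 19166 CPM pre-processed with libraries apart, where no post-processed cluster took that name and no ratio within the class could be given.

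The share of microglia-like barcodes with any of the 8 genes was 22.4% pre-processed with no minimum, 22.4% and 18.8% at resolution 1.0, 12.5% and 7.29% without the oligodendrocyte marker barcodes, 77.6% and 59.4% unthinned, and 63.5% and 41.5% at 500 UMIs. Post-processed it was also 13.5% with libraries apart, 37.7% at resolution 0.2 and 38.6% with shallow clusters added. The share with 2 or more was 5.17% and 6.5% with no minimum, 5.17% and 3.36% at resolution 1.0, 0 of 24 barcodes (0%) and 2.08% without the oligodendrocyte marker barcodes, and 50.6% and 34.4% unthinned. It was 12.5% pre-processed with classes from marker UMIs, and post-processed 1.29% with libraries apart and 19.9% at 500 UMIs. Sparse genes limit what depth shows: CLDN11 had 5 UMIs in pre-processed microglia-like barcodes.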
